A study of Mus musculus with 18 samples.

Results

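A set of 32 genes that encode known targets of organ-specific autoimmunity was followed in RNA-seq of medullary thymic epithelial cells (mTECs) sorted from mice. All 32 were found by symbol among the 49585 genes of the Aire and Fezf2 count tables and the 21969 genes of the Chd4 count table. They were grouped by target organ into 10 groups, from 6 genes of the pancreatic islet to a single gene of the parathyroid. The rule for membership is the known disease target. The libraries were made from 6 groups of 3. C57BL/6 mice labelled Aire KO were set against WT mice of their own, and C57BL/6 mice labelled Fezf2 KO against a separate WT group. Mice with Chd4 flox/flox and Foxn1-Cre (Chd4 cKO), in which Cre is driven by a promoter of thymic epithelium, were set against Chd4 flox/flox mice without Cre. Both Chd4 groups were of the mixed strain C57BL/6x129P2 and both carried the floxed allele. Headers of the count table name the Fezf2 libraries Fezf2cKO, whereas the sample labels give a knockout. Ages and the number of mice per library were not given in the labels.

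mTECs transcribe genes of many peripheral organs and show the resulting peptides to developing T cells, and T cells that bind them too strongly are deleted or diverted into regulatory cells. Aire, a transcriptional regulator, and Fezf2, a zinc finger transcription factor, are each known to promote such transcription in mTECs, and Chd4 is an ATP-dependent helicase subunit of the NuRD complex, which remodels chromatin. In people who lack AIRE, autoantibodies against enzymes of amine synthesis, stomach proteins and other tissue antigens mark the disease.

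Exon reads per library ranged from 3571570 to 17220157, and from 3571570 to 6946014 without the deepest library, Chd4 cKO library B. Letters A, B and C name the 3 libraries of each group by their barcodes. Fezf2 transcripts stood at a TMM-normalised CPM of 652 in its WT and 13.6 in the Fezf2 KO, and Chd4 at 60.3 in its control and 27.4 in the cKO. Aire transcripts reached 3941 CPM in the Aire KO-labelled libraries against 2018 in their WT. Which exons the Aire allele lacks was not stated in these sources, so this gene-wide count is no check of the label, and directions below are for libraries by that label, called Aire KO-labelled. All 6 mTEC markers, among them Epcam, Krt5, Krt8 and H2-Aa, had reads in every group. They moved apart in the Aire KO-labelled libraries. Epcam (-0.36, adjusted p = 0.0302) and Krt5 (-0.69, adjusted p = 0.00245) were lower there. Cd80 (0.44, adjusted p = 0.0277) and H2-Aa (0.34, adjusted p = 0.0485) were higher. In the Fezf2 KO, Krt5 was higher (1.51, adjusted p = 0.00635) and 0 were lower. In the Chd4 cKO, 1 was lower and 1 higher. The summed level of 8 thymocyte markers was 295.6 to 574.4 CPM in the WT for Fezf2 and 147.3 to 188.5 in the Fezf2 KO, with none of the 8 at 0. That of 4 dendritic cell and macrophage markers was 54.9 to 58.6 CPM in the WT for Aire and 10.7 to 13.3 in the Aire KO-labelled libraries, where Itgax was at 0. Adgre1 (-4.89, adjusted p = 5.69e-06) and Csf1r (-2.16, adjusted p = 0.00051) were lower there, and Flt3 did not pass (-0.34, adjusted p = 0.637). The 4 fibroblast markers, none at 0, moved apart there: Dcn was higher (1.43, adjusted p = 2.88e-05), Col1a1 (-2.95, adjusted p = 0.000253) and Col1a2 (-1.11, adjusted p = 0.0185) were lower, and Pdgfra had too few reads to test. Their sum, 139.2 to 182.1 CPM in that WT and 299.1 to 380.6 in the Aire KO-labelled libraries, follows Dcn. The 2 endothelial markers, neither at 0, summed to 8.28 to 9.07 CPM and 20.2 to 27.6 CPM in the same groups, with Pecam1 higher (1.40, adjusted p = 0.00247) and Cdh5 not tested. The summed level of 3 markers of microfold-like mTECs, none at 0, was 859.9 to 1439 CPM in the WT for Aire and 479.0 to 710.7 in the Aire KO-labelled libraries, and 928.4 to 1498 in the Chd4 control and 693.9 to 805.8 in the cKO, with 2 of the 3 lower in each comparison. The part of these cells in the results was not tested. WT for Fezf2 library B differed from libraries A and C of its group in several members. Members whose call changed without it, and the larger moves of fold change in the Fezf2 KO, are given below.

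Between 26 and 32 of the 32 genes had at least 1 exon read in a group. All 32 were detected in the Fezf2 KO, the Chd4 control and the Chd4 cKO, 31 in each WT group and 26 in the Aire KO-labelled libraries. Thinned to the depth of the shallowest library, 3571570 exon reads, the Aire KO-labelled libraries held 25 of them and the other groups 31 or 32. The genes with 0 reads in the Aire KO-labelled libraries were Slc30a8, Mog, Mobp, Rbp3, Svs2 and Tph2. A count of 0 over that group, taken as at most 3 reads, allows up to 0.229 CPM. Mog, myelin oligodendrocyte glycoprotein, was also at 0 in the WT for Aire, where the limit was 0.214 CPM, and Gad2 was at 0 in the WT for Fezf2, where it was 0.235 CPM. The limits and the intervals of read ratios below cover counting error only.

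Levels spanned more than 2 orders of magnitude per exon length. In the Chd4 control, Dsg1a, a desmosomal cadherin of skin, was highest at 61.3 ± 8.92 RPKM (mean ± SD, n = 3, as for all group values). Tph1, a tryptophan hydroxylase, followed at 26.8 ± 3.24, Atp4a, the catalytic chain of the gastric proton pump, at 20.7 ± 3.93, and Mbp, myelin basic protein, at 17.3 ± 1.86 RPKM. At the other end, Gad2 (0.234 ± 0.134), Rbp3 (0.203 ± 0.139) and Mog (0.0952 ± 0.0825 RPKM) were the lowest, on 16, 13 and 2 reads over the group. Exon lengths in the Chd4 table were shorter for 20 of the 32 genes, Sag at 1729 bases against 8904 and Tph1 at 2266 against 6172, so RPKM of those genes cannot be set across the annotations.

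**Figure D1:**
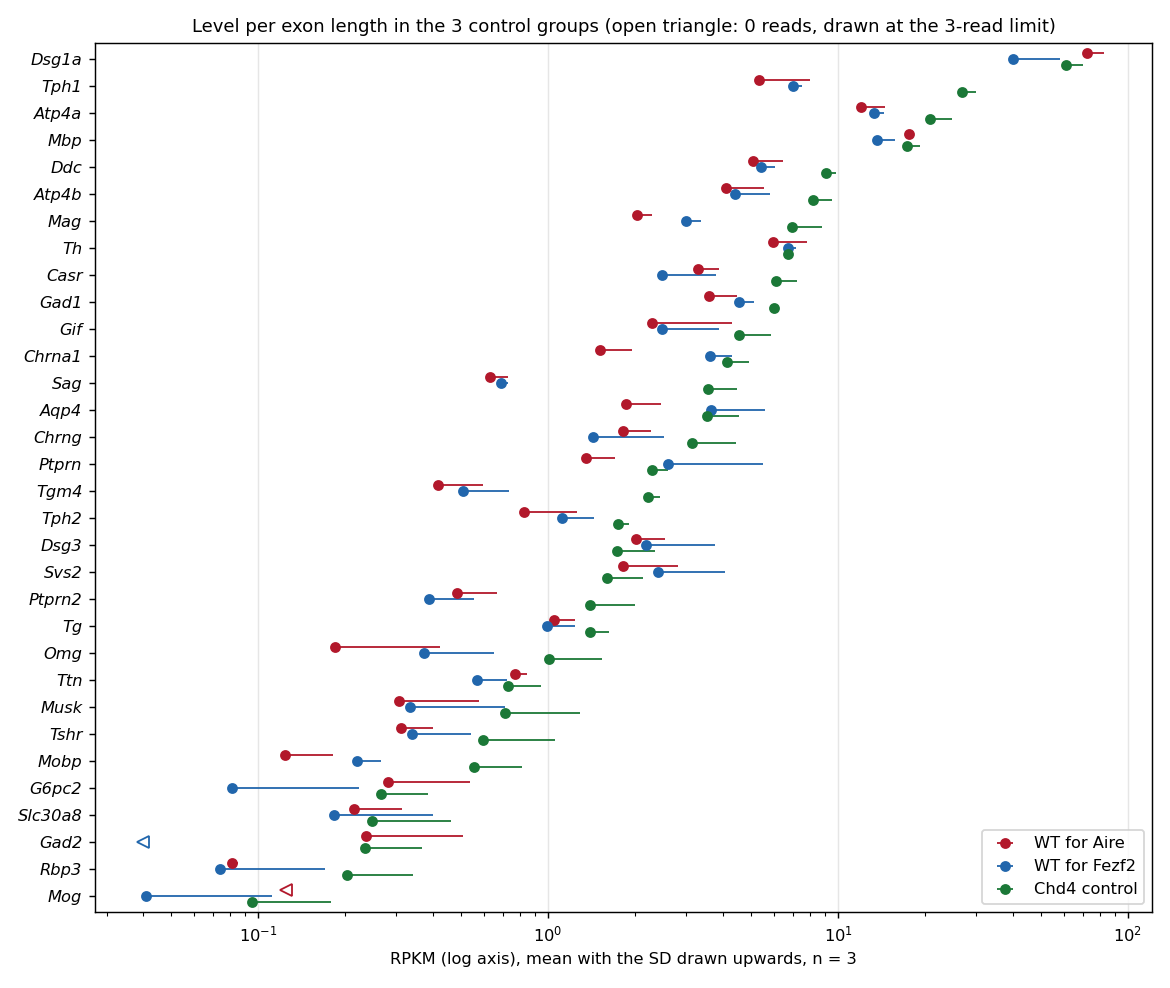
Level of each of the 32 genes in the 3 control groups, as RPKM on a log axis, ordered by the Chd4 control. Points are means of 3 libraries with 1 SD drawn upwards, and an open triangle marks a group with 0 reads, drawn at the level of 3 reads. Dsg1a is at the top in all 3 groups, and Mog and Rbp3 are at the bottom.

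The counts are of total exon reads, which stand beside a separate column of unique reads, so reads that match more than 1 gene may be included. Values of Dsg1a, which has near copies in its gene cluster, are uncertain in that respect.

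How many members changed depended on the filter on low counts, which leaves out genes that fell to 0 from a low level. With the filter, in the Aire KO-labelled libraries, 3 members were lower (Th, Mag and Atp4a) and 0 higher of 19 that could be tested (edgeR's quasi-likelihood test, Benjamini-Hochberg adjusted p under 0.05 over all genes, as for every call below). Over all 14949 genes tested there, 9.37% were lower and 5.73% higher. Without the filter, 6 members were lower and 2 higher (Svs2, Tph2 and Tgm4 added as lower, Tph1 and Tg as higher). Tph1 and Tg were tested in both fits, and their adjusted p was smaller without the filter, for Tph1 7.66e-06 against 0.0679. At an unadjusted p under 0.05, 6 members were lower (Aqp4, Atp4a, Dsg3, Gad1, Mag and Th) and 3 higher (Tg, Mbp and Tph1). DESeq2 called 0 higher and 3 lower, the same as edgeR. The median log2 fold change of the 19 was -0.24, against 0 over all genes. The remaining 13 members had too few reads for the test, among them Svs2 and Tph2, which had 0 reads. In the Fezf2 KO, 0 of 22 tested members were lower and 1, Aqp4, was higher, where 2.4% of 15695 genes were lower and 2.48% higher. Without the filter, 0 were lower and 2 higher (Casr added). At an unadjusted p under 0.05, 1 member was lower (Chrna1) and 5 were higher (Aqp4, Casr, Dsg1a, Mbp and Svs2). DESeq2 called 0 lower and 2 higher (Aqp4 and Casr). Medians were 0.23 for the members and -0.03 for all genes. In the Chd4 cKO, 8 of 22 tested members were lower (Atp4a, Atp4b, Gif, Casr, Tgm4, Th, Tph1 and Tph2) and 1, Mbp, was higher, where 14.3% of 15182 genes were lower and 14.3% higher. Without the filter, 9 were lower (Svs2 added) and 1 higher. The median was -0.41, against 0.001 over all genes. Between the WT groups, 0 of 23 tested members passed in either direction, where 0.0319% of 15656 genes were lower in the WT for Fezf2 and 0.0958% higher. At an unadjusted p under 0.05, 1 was lower (Dsg1a) and 1 higher (Chrna1), and DESeq2 called 0. Shares over all genes were taken for the filtered edgeR calls only. Counts at an unadjusted p, by DESeq2 or without the filter, here and below, have no such yardstick. With the filter, 11 of the 32 members passed in at least 1 of the 3 knockout comparisons and none passed in all 3. Another 9 could be tested with it in no comparison with a knockout. A smaller share of a cell type and less RNA per cell cannot be told apart in these sorted bulk libraries.

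**Figure D2:**
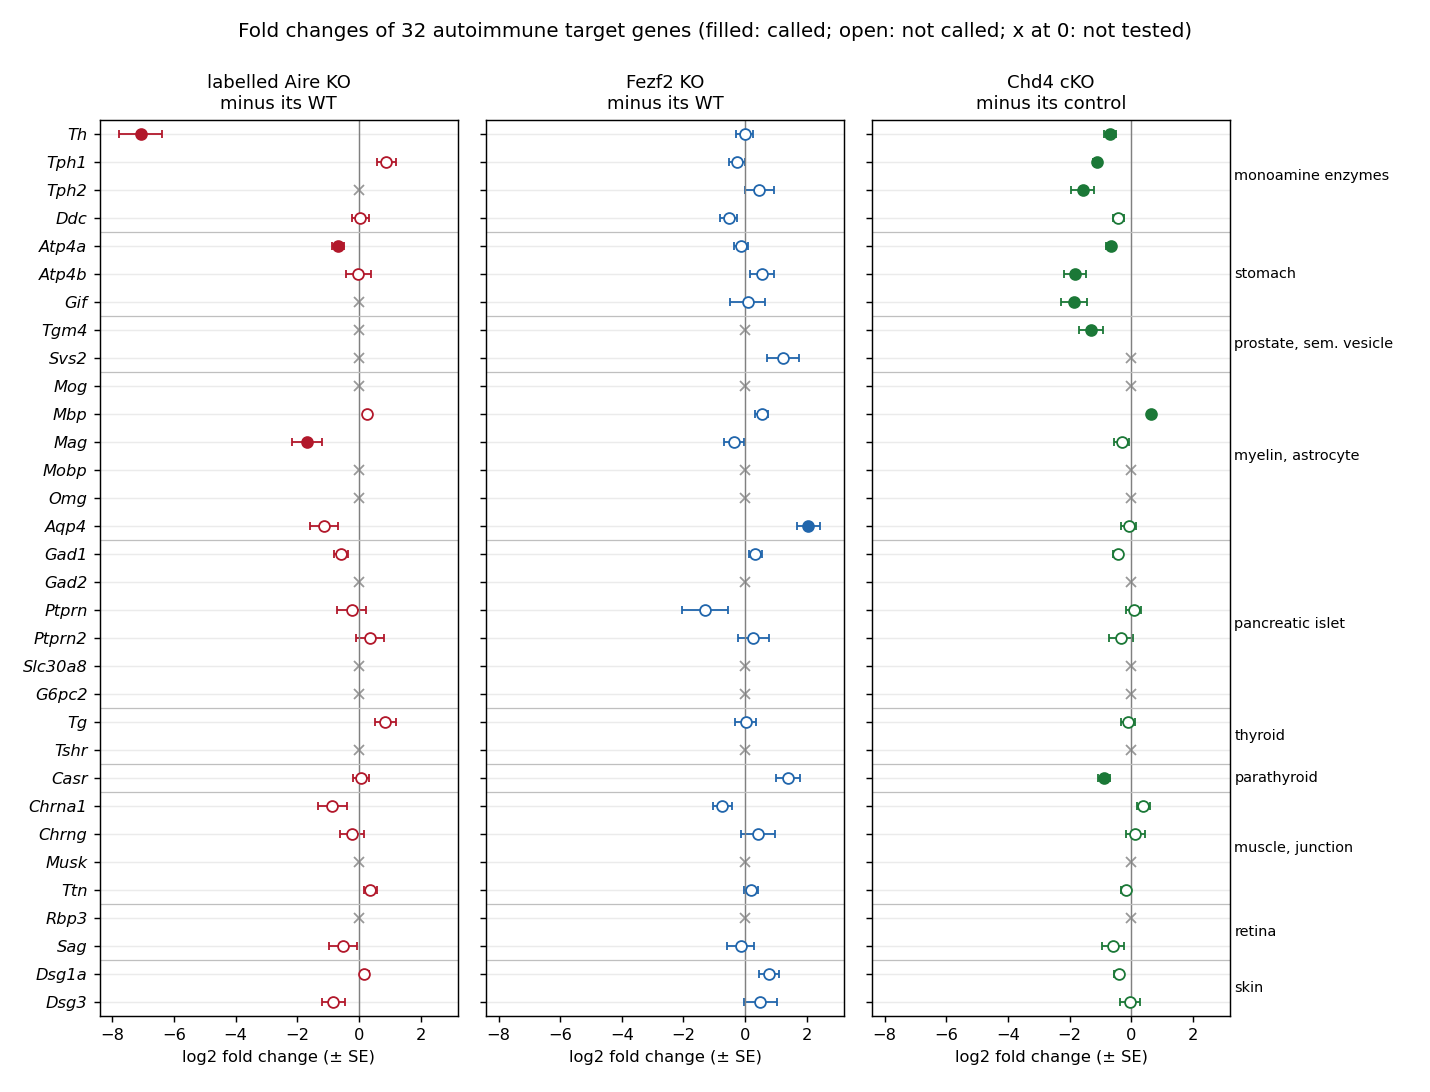
Log2 fold change with its SE for each of the 32 genes by target organ, in the Aire KO-labelled libraries, the Fezf2 KO and the Chd4 cKO, each against its own control. Filled points passed edgeR's test over all genes, open points did not, and crosses at 0 mark genes with too few reads to test. Th at -7.09 stands farthest out, and the Chd4 cKO has 3 filled points each in the monoamine and stomach groups and 1 each in the prostate, myelin and parathyroid groups.

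Among the enzymes of monoamine synthesis, Th was all but lost in the Aire KO-labelled libraries, and 3 of the 4 enzymes fell in the Chd4 cKO. Th, tyrosine hydroxylase, the rate-limiting enzyme of dopamine and noradrenaline synthesis (GRCm38 chromosome 7, 142892752 to 142931128), had 95, 50 and 55 exon reads in the WT for Aire and 1, 0 and 0 in the Aire KO-labelled libraries. The groups did not overlap, and all 3 knockout libraries were at or near 0. The log2 fold change was -7.09 (SE 0.70, adjusted p = 2.45e-05), and the ratio of reads was 186 (exact conditional 95% interval 33.1 to 7400). Tph2, the tryptophan hydroxylase of serotonin neurons (chromosome 10, 115078641 to 115185022), had 6, 10 and 17 reads in the WT and 0 in each Aire KO-labelled library, at least 10.3-fold lower. It had too few reads for the filtered test, and without the filter its adjusted p was 0.000651. Filtered fits without Aire KO-labelled library A, B or C or WT library A, its lowest WT library, held it, at an adjusted p of up to 0.0303. Those without WT library B or C did not hold it. With 0 reads in the knockout libraries, Tph2 entered such fits only through its WT reads, so they add no independent support. Tph1, the tryptophan hydroxylase of gut endocrine cells and the pineal gland (chromosome 7, 46644641 to 46672537), lay above its WT. It stood at 41.2, 14.1 and 43.8 CPM in the WT and at 50.5, 62.2 and 71.9 CPM in the Aire KO-labelled libraries, without overlap, but did not pass (log2 fold change 0.89, SE 0.30, adjusted p = 0.0679). WT library B was the low one. Without the filter on low counts Tph1 passed at an adjusted p of 7.66e-06. The reads were the same in both fits, so p-values without the filter are not of like stringency with the filtered ones. Ddc, the decarboxylase that acts after both hydroxylases, had 22.6 ± 6.17 CPM in the WT and 23.3 ± 8.77 in the Aire KO-labelled libraries, with overlap (0.04, SE 0.28, adjusted p = 0.947).

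The RefSeq promoter sequences (GRCm38.p6) of these 4 enzymes are printed because Th and Tph2 were nearly or fully without reads in the Aire KO-labelled libraries while their partners Ddc and Tph1 were not. Svs2 and Mag, described below, are added as 2 further genes low there. Each line gives the 150 bases before the annotated start, 5′ to 3′ on the strand of the gene, with CG dinucleotides in capitals. For Th the RefSeq start lies 31133 bases inside the gene span given above, which is the GENCODE one, and for the others it lies within 125 bases of the GENCODE start.
Th (chr7:142899996-142900145, minus strand): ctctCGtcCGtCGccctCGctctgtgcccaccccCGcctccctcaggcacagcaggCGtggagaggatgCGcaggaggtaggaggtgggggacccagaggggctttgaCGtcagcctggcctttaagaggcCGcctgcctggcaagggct
Ddc (chr11:11898145-11898294, minus strand): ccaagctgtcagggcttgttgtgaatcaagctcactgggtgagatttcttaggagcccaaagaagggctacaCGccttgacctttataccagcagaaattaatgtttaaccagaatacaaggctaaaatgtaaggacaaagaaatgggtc
Tph2 (chr10:115185023-115185172, minus strand): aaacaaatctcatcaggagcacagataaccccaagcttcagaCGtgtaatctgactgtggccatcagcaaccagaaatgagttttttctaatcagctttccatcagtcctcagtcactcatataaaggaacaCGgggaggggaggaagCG
Tph1 (chr7:46672538-46672687, minus strand): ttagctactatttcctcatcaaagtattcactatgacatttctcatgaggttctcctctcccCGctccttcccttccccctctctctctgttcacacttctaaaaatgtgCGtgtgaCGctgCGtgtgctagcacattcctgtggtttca
Svs2 (chr2:164238342-164238491, minus strand): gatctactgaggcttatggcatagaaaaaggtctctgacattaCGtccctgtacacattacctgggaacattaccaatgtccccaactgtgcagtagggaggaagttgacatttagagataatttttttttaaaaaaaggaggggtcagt
Mag (chr7:30914864-30915013, minus strand): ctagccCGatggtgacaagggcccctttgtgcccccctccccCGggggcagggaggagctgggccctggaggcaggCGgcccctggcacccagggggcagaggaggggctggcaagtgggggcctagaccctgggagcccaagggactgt

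The printed stretches hold 9 CG dinucleotides for Th, 4 for Tph1, 3 each for Tph2 and Mag, and 1 each for Ddc and Svs2. Over windows of 300 bases, from 250 before to 50 after the start, 23 of the 32 members matched the RefSeq table. Of these 23, 12 held fewer than 6 CG dinucleotides (52.2%), as did 43.6% of all 32851 windows. Genes called lower in the Aire KO-labelled libraries held a median of 6, taking the highest window of each gene, and all genes tested there 21. Fewer than 6 were in 44.7% of those lower and 13.5% of those tested. Member values use the window nearest the GENCODE start, so they are of unlike measure with these per-gene values. Besides Th, that window was far from the GENCODE start for Gad1, by 9057 bases, and for Chrng, by 1154 bases. The motif TATAAA on either strand was in 6 of the 23 member windows, Gad1, Sag, Tgm4, Svs2, Tph2 and Ddc, and in 13.6% of all windows. Taking any window of a gene, it was in 21.4% of genes lower in the Aire KO-labelled libraries and 10.1% of those tested. These are matches of letters and not sites.

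All 4 enzymes had reads in every library of the other knockouts. In the Fezf2 KO, Th stood at 18.5, 16.9 and 11.7 CPM against 16.8, 16.2 and 14.7 in the WT (log2 fold change -0.02, SE 0.28, adjusted p = 0.984). Tph1, Tph2 and Ddc did not pass there either, with log2 fold changes of -0.27, 0.46 and -0.53. In the Chd4 cKO, 3 of the 4 enzymes fell. Tph1 stood at 60.5, 68.0 and 53.4 CPM in the control and at 27.5, 28.8 and 28.3 in the cKO, a narrow band well under the controls (-1.10, SE 0.13, adjusted p = 0.000165). Tph2 fell from 4.57 ± 0.414 to 1.50 ± 0.191 CPM (-1.56, SE 0.37, adjusted p = 0.0107). Th fell from 15.9 ± 0.672 to 9.71 ± 1.16 CPM (-0.70, SE 0.20, adjusted p = 0.0241), without overlap. This call was lost when control library B or C or cKO library A or C was left out, at an adjusted p of up to 0.0692. Ddc stood below its controls in all 3 cKO libraries but did not pass (-0.42, SE 0.17, adjusted p = 0.0963).

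**Figure D3:**
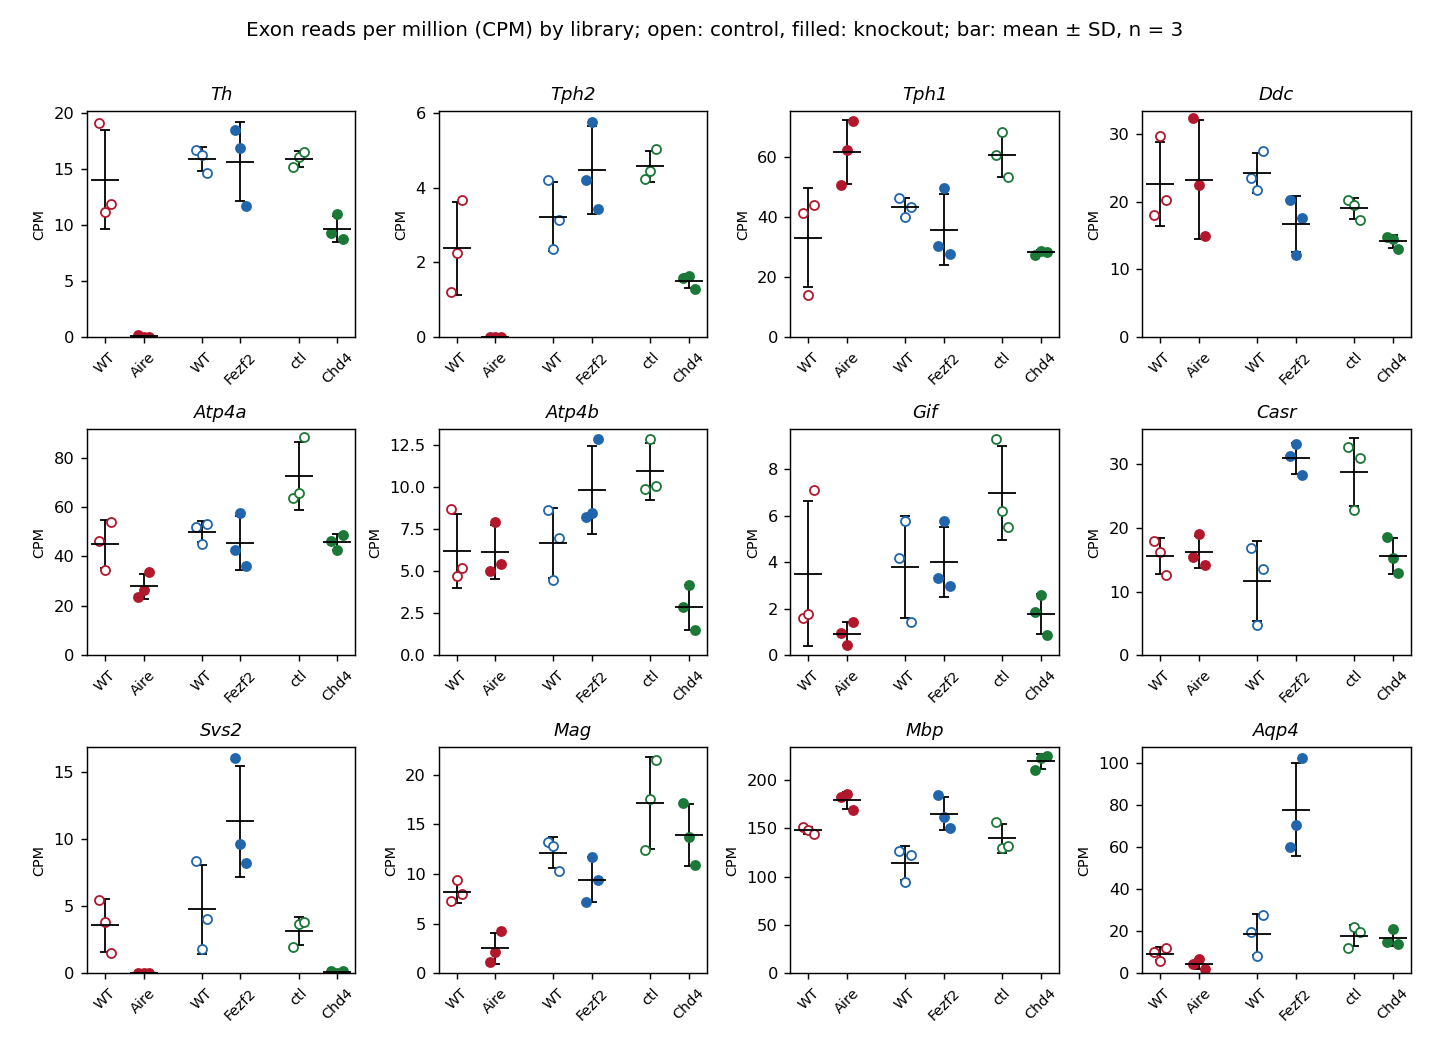
CPM of 12 members in each library. Open points are control libraries (WT for Aire, WT for Fezf2, Chd4 control), filled points are the Aire KO-labelled libraries, the Fezf2 KO and the Chd4 cKO, and bars give mean ± SD of 3 libraries. Th, Tph2 and Svs2 are at or near 0 in the Aire KO-labelled libraries, Aqp4 is high in the Fezf2 KO, and Atp4b and Gif are low in the Chd4 cKO.

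All 3 stomach genes were lower in the Chd4 cKO. Atp4b, the beta chain of the gastric proton pump (chromosome 8, 13386205 to 13396825), had 9.85, 12.9 and 10.1 CPM in the control libraries and 2.88, 4.16 and 1.50 in the cKO (-1.84, SE 0.36, adjusted p = 0.0038). Gif, gastric intrinsic factor, which carries vitamin B12 (chromosome 19, 11747554 to 11763447), stood at 9.28, 6.18 and 5.50 CPM and at 1.87, 2.58 and 0.857 (-1.85, SE 0.43, adjusted p = 0.00905). Neither gene's groups overlapped. Atp4a (chromosome 7, 30712209 to 30725534) fell less, from 63.6, 65.6 and 88.3 CPM to 46.2, 42.5 and 48.8 (-0.67, SE 0.14, adjusted p = 0.00532). In the Aire KO-labelled libraries, Atp4a was the stomach gene that passed. It stood at 46.4, 34.6 and 54.0 CPM in the WT and at 23.6, 26.6 and 33.6 there, so that the groups nearly touched (-0.69, SE 0.20, adjusted p = 0.0352). The call was lost when WT library A or C or Aire KO-labelled library A or B was left out, at an adjusted p of up to 0.158. Atp4b had 6.19 ± 2.17 and 6.12 ± 1.58 CPM in the same libraries (-0.02, SE 0.40, adjusted p = 0.986). The Chd4 effect differed from the Aire effect for Atp4b, as given below. Gif had 8, 8 and 33 reads in the WT for Aire and 4, 2 and 6 in the Aire KO-labelled libraries, too few for the filtered test (adjusted p = 0.0795 without the filter). In the Fezf2 KO none of the 3 passed, with log2 fold changes of -0.14 for Atp4a, 0.55 for Atp4b and 0.08 for Gif.

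The prostate and seminal vesicle genes were near silent in the Aire KO-labelled libraries. Svs2, a secretory protein of the seminal vesicle (chromosome 2, 164235929 to 164238466), had 27, 17 and 7 reads in the WT and 0 in each Aire KO-labelled library, at least 15.9-fold lower. Tgm4, prostate transglutaminase (chromosome 9, 123034726 to 123067561), had 14, 7 and 6 reads in the WT and 0, 0 and 1 there, a ratio of 25.2 (exact conditional 95% interval 4.15 to 1030). Neither had the reads for the filtered test, and without the filter the adjusted p was 7.26e-06 for Svs2 and 0.0173 for Tgm4. Filtered fits without Aire KO-labelled library A, B or C or WT library C, its lowest WT library, held Svs2, at an adjusted p of up to 0.0176. Those without WT library A or B did not hold it. Svs2 too entered such fits only through its WT reads, so they add no independent support. Svs2 was also low in the Chd4 cKO, with 7, 15 and 16 reads in the control and 1, 1 and 1 in the cKO, a ratio of 30.9 (9.79 to 156). It was not tested with the filter, and without it the adjusted p was 0.000849. Tgm4 fell in the Chd4 cKO from 6.12 ± 0.591 to 2.33 ± 0.931 CPM (-1.31, SE 0.38, adjusted p = 0.0262). That call was lost when control library A or B or cKO library A or C was left out, at an adjusted p of up to 0.0828. Both genes had reads in every Fezf2 KO library. Svs2 stood at 16.1, 9.67 and 8.26 CPM there and at 8.39, 1.83 and 4.09 in the WT, overlapping (1.23, SE 0.52, adjusted p = 0.232), and Tgm4 had 22 reads against 30, too few to test. The libraries differed in reads of 4 Y-linked genes within some of these groups. Libraries A, B and C had 910, 55 and 908 such reads in the WT for Aire, 2, 884 and 903 in the Aire KO-labelled group, 560, 4 and 2 in the Chd4 control and 5, 4 and 0 in the Chd4 cKO, and at most 8 in each Fezf2 library. The part of sex in the values of these genes of male glands was not tested.

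Myelin and astrocyte genes split by member. Mag, myelin-associated glycoprotein (chromosome 7, 30899176 to 30914873), had 36, 42 and 37 reads in the WT for Aire and 5, 10 and 18 in the Aire KO-labelled libraries, without overlap (-1.69, SE 0.48, adjusted p = 0.0289). This call was lost when any library but Aire KO-labelled library C was left out, at an adjusted p of up to 0.102. Mobp, a myelin basic protein of oligodendrocytes, had 6, 4 and 2 reads and then 0 in each, at least 3.73-fold lower, and did not pass without the filter (adjusted p = 0.0791). Mbp, the gene of the main basic protein of myelin, was not lower. Its reads were counted over the whole gene, which does not tell its transcripts apart. Mbp stood at 151, 149 and 144 CPM in the WT and at 182, 186 and 169 in the Aire KO-labelled libraries, above but not past the test (0.28, SE 0.10, adjusted p = 0.0966). In the Chd4 cKO Mbp was the member that rose, from 157, 130 and 132 CPM to 211, 223 and 225 (0.65, SE 0.10, adjusted p = 0.000854), without overlap. Mag did not pass there (-0.30, SE 0.24, adjusted p = 0.394) or in the Fezf2 KO (-0.37, SE 0.32, adjusted p = 0.581). With the filter and all libraries, Omg, at 6 to 31 reads per group, and Mog, at 0 to 9, could be tested in no comparison, and neither could Mobp.

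Aqp4, the water channel of astrocyte end-feet and the target of neuromyelitis optica, was the member higher in the Fezf2 KO. It had 93, 32 and 116 reads in the WT for Fezf2 and 345, 342 and 447 in the Fezf2 KO. All 3 knockout libraries were above all WT libraries, at 60.3, 70.4 and 103 CPM against 19.5, 8.38 and 27.9 (2.05, SE 0.38, adjusted p = 0.0151). The call was lost when any of the 3 Fezf2 KO libraries was left out, at an adjusted p of up to 0.101, and held without WT for Fezf2 library B, the low one, at 1.71 (adjusted p = 0.000652). Aqp4 stood at 9.41 ± 3.01 CPM in the WT for Aire and 4.27 ± 2.38 in the Aire KO-labelled libraries, overlapping (-1.13, SE 0.46, adjusted p = 0.125), and at 17.99 ± 5.22 and 16.8 ± 3.87 in the Chd4 control and cKO (-0.08, SE 0.25, adjusted p = 0.834). The summed level of 6 mTEC markers was 11180 to 14600 CPM in the WT for Fezf2 and 16820 to 18250 in the Fezf2 KO. H2-Aa made up most of that sum, at 8710 and 12820 CPM, and did not pass (adjusted p = 0.187). The part of cell composition in the change of Aqp4 was not tested.

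Casr, the calcium-sensing receptor of the parathyroid (chromosome 16, 36493696 to 36562141), fell in the Chd4 cKO and lay above its WT in the Fezf2 KO. It stood at 32.6, 22.8 and 30.9 CPM in the Chd4 control and at 18.6, 15.3 and 12.8 in the cKO, without overlap (-0.88, SE 0.20, adjusted p = 0.00776). Among the WT libraries for Fezf2 it had 16.8, 4.71 and 13.5 CPM and among the Fezf2 KO libraries 31.3, 33.1 and 28.2, also without overlap. That difference did not pass (1.39, SE 0.38, adjusted p = 0.0694) and passed without WT for Fezf2 library B, where Casr was low (1.03, adjusted p = 0.00658), in DESeq2 (1.40, adjusted p = 0.0108) and without the filter (1.40, adjusted p = 0.00393). In the Aire KO-labelled libraries Casr was level with its WT, at 16.2 ± 2.53 against 15.6 ± 2.77 CPM (0.06, SE 0.25, adjusted p = 0.906).

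Of the 6 islet genes, 3 could be tested with the filter in each comparison and none passed in edgeR or DESeq2. At an unadjusted p under 0.05, 1 was lower in the Aire KO-labelled libraries and 1 in the Chd4 cKO, Gad1 in both. Gad1, a glutamate decarboxylase that makes GABA, was the best measured. WT libraries for Aire held 28.7, 20.2 and 33.7 CPM of it, and those labelled Aire KO 16.4, 17.6 and 20.6 (-0.60, SE 0.23, adjusted p = 0.103), with overlap. The Chd4 control held 28.4, 28.2 and 29.2 CPM and the cKO 19.4, 24.1 and 19.3, without overlap (-0.44, SE 0.15, adjusted p = 0.0545). Its log2 fold change in the Fezf2 KO was 0.32 (SE 0.21, adjusted p = 0.448). Ptprn, the secretory granule phosphatase-like protein IA-2, stood between 1.93 and 25.1 CPM among the WT for Fezf2 libraries, the highest being library B. Its log2 fold change in the Fezf2 KO was -1.29 (SE 0.75, adjusted p = 0.386) and turned to 0.14 without that library. Ptprn2, its relative, had 44 to 104 reads per group and log2 fold changes of 0.34, 0.27 and -0.32 for Aire, Fezf2 and Chd4, and the Fezf2 value was -0.02 without WT for Fezf2 library B. Gad2, the glutamate decarboxylase GAD65 that is the major target in type 1 diabetes, Slc30a8, the zinc transporter of insulin granules, and G6pc2, an islet glucose-6-phosphatase, could be tested nowhere with the filter. Gad2 had 19 reads in the WT for Aire, 4 in the Aire KO-labelled libraries, 0 in the WT for Fezf2 and 3 in the Fezf2 KO. In the Chd4 groups it had 16 reads in the control and 11 in the deeper cKO. Slc30a8 had 6 reads in the WT for Aire and 0 in the Aire KO-labelled libraries, at least 1.86-fold lower, and did not pass without the filter (adjusted p = 0.242). G6pc2 had 2 to 8 reads per group.

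Of the thyroid, muscle, retina and skin genes, none passed in edgeR. At an unadjusted p under 0.05, 4 of them passed in at least 1 comparison with a knockout: Tg, Chrna1, Dsg1a and Dsg3. DESeq2 called Dsg1a lower in the Chd4 cKO (-0.40, adjusted p = 0.0344). Tg, thyroglobulin, the protein from which thyroid hormone is made, had 7.67, 9.20 and 11.01 CPM in the WT libraries for Aire and 14.5, 25.9 and 9.93 in the Aire KO-labelled libraries, overlapping (0.86, SE 0.35, adjusted p = 0.122). Without the filter it passed as higher (0.87, adjusted p = 0.0358). Without Aire KO-labelled library C, the lowest of that group, Tg (1.14, adjusted p = 0.0253) and Ttn (0.63, adjusted p = 0.00948) passed as higher. Tg was near its controls in the Fezf2 KO (0.02) and the Chd4 cKO (-0.09). Tshr, the thyrotropin receptor and target of Graves disease, had 14 to 33 reads per group, too few for the filtered test. In the Chd4 cKO it did not pass without the filter (-1.61, adjusted p = 0.122). It passed as lower there in the filtered fit without control library B (-2.1, adjusted p = 0.0465).

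Chrna1 and Chrng, the alpha and gamma subunits of the muscle acetylcholine receptor, and Ttn, titin, were measured in every comparison. Chrna1 had 8.28, 4.49 and 7.12 CPM in the WT libraries for Aire and 1.90, 4.50 and 4.49 in the Aire KO-labelled libraries, with overlap (-0.86, SE 0.46, adjusted p = 0.252). In the Fezf2 KO it lay below its WT without overlap, at 9.46 ± 1.20 against 15.8 ± 3.04 CPM (-0.74, SE 0.30, adjusted p = 0.21), where the summed level of 3 markers of muscle-like mTECs was 21.3 to 43.4 CPM against 58.9 to 64.7 in the WT. In the Chd4 cKO it had a log2 fold change of 0.40 (SE 0.21, adjusted p = 0.183). The same 3 markers summed to 269.8 to 287.9 CPM in the cKO and 61.5 to 86.4 in the control, with none at 0 in these 4 groups, and their part in these values was not tested. Chrng and Ttn had log2 fold changes between -0.24 and 0.43. Without WT for Fezf2 library B, those in the Fezf2 KO went from 0.43 to 1.13 for Chrng (adjusted p = 0.175) and from 0.18 to 0.41 for Ttn (adjusted p = 0.102). Musk, the receptor kinase of the neuromuscular junction, had 9 to 46 reads per group, too few for the filtered test.

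Sag, retinal arrestin or S-antigen, had log2 fold changes of -0.52, -0.14 and -0.60 for Aire, Fezf2 and Chd4, with adjusted p of 0.514, 0.896 and 0.236. Rbp3, the interphotoreceptor retinoid-binding protein that is used to induce uveitis, had 2, 2 and 2 reads in the WT for Aire and 0 in each Aire KO-labelled library, at least 1.86-fold lower, with an adjusted p of 0.241 without the filter. Dsg1a, the target of pemphigus foliaceus, was abundant everywhere, at 411 ± 60.8 CPM in the WT for Aire and 461 ± 75.9 in the Aire KO-labelled libraries (0.17, SE 0.14, adjusted p = 0.507). WT for Fezf2 library B held 420 reads of it, against 1300 and 1247 in libraries A and C. Without that library Dsg1a passed as higher in the Fezf2 KO (0.45, adjusted p = 0.0328, against 0.78 with it), as did Mbp (0.41, adjusted p = 0.0493, against 0.53). Between the WT groups, leaving it out made Dsg1a (-0.58, adjusted p = 0.0359) and Ttn (-0.72, adjusted p = 0.0219) pass as lower in the WT for Fezf2 and Aqp4 (1.27, adjusted p = 0.0393) as higher. Some fold changes in the Fezf2 KO did not pass with or without it. They went from 0.49 to 0.03 for Dsg3, from 0.55 to 0.33 for Atp4b and from 0.08 to 0.49 for Gif. Those of Tph2, Svs2 and Chrna1 went from 0.46 to 0.28, from 1.23 to 0.86 and from -0.74 to -0.6. Dsg3, the target of pemphigus vulgaris, was below its WT in all Aire KO-labelled libraries, at 4.61 ± 0.65 CPM against 8.26 ± 2.16, and did not pass (-0.84, SE 0.38, adjusted p = 0.167).

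The differences between these changes were tested as contrasts in a fit of all 18 libraries, in which 25 of the 32 members could be tested. The Fezf2 effect differed from the Aire effect in 8 members (Gad1, Tgm4, Svs2, Th, Tph1, Tph2, Aqp4 and Casr), where 16.9% of 16169 genes differed. The Chd4 effect differed from the Aire effect in 4 (Atp4b, Th, Tph1 and Tph2), where 16.5% did, and from the Fezf2 effect in 5 (Atp4b, Svs2, Dsg1a, Aqp4 and Casr), where 14.9% did. The change of Th and of Tph2 was more negative in the Aire KO-labelled libraries than in either other knockout, and that of Tph1 more positive. Sizes of the differences for genes with 0 reads in a group, Svs2 and Tph2, depend on the prior count of the fit and are no bound. Strain, annotation and the run named in the column headers go with the Chd4 groups. They cannot be told apart from the genotype in contrasts of Chd4 with the other knockouts. Y-linked reads, given above, also differed between the libraries of the Aire and Fezf2 comparisons, and their part in these contrasts was not tested. The comparisons share no library.

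**Figure D4:**
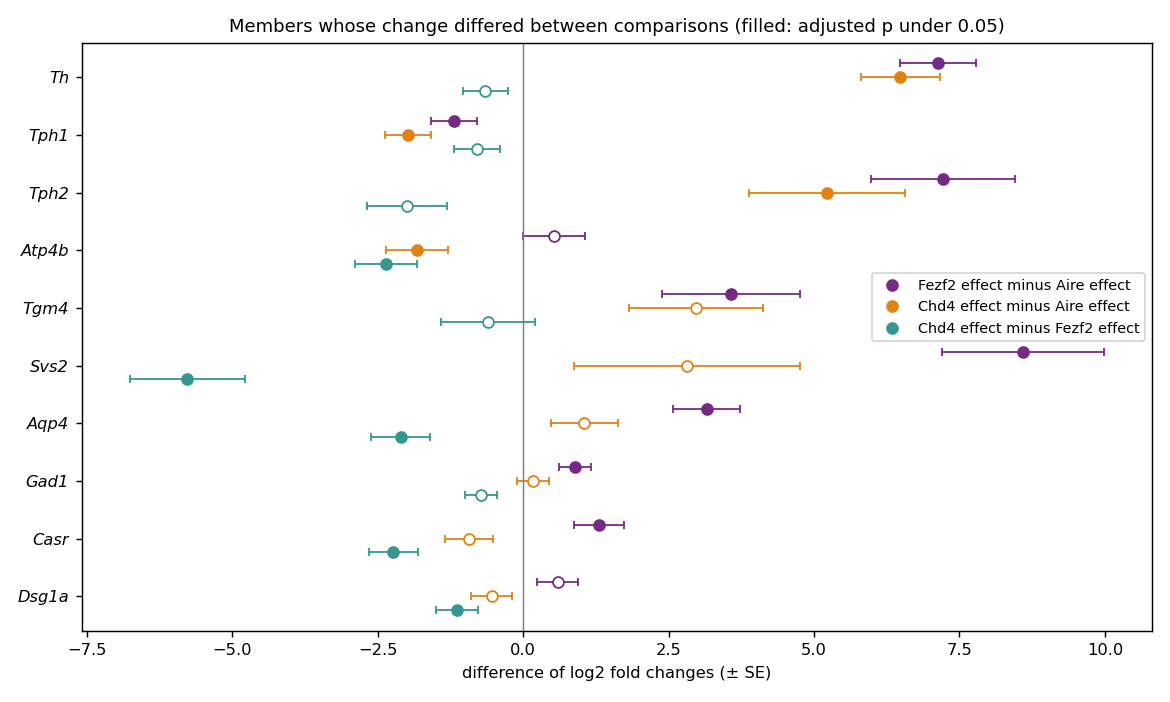
Difference of log2 fold changes between pairs of comparisons, with its SE, for the 10 members that passed in at least 1 pair. Filled points passed edgeR's test over all genes. Th and Tph2 lie far to the right for both contrasts with the Aire effect, and Svs2, Aqp4, Casr and Atp4b lie to the left for Chd4 minus Fezf2.

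A wider list of other autoimmune targets and their tissue partners, 79 genes found of 80 listed, is set beside the 32. It was chosen with earlier results of these data known, so its shares are no independent yardstick. In the Aire KO-labelled libraries, 22 of 51 tested were lower and 3 higher, with a median log2 fold change of -0.51. Over all genes tested there, 9.37% were lower and 5.73% higher. Cyp1a2, a liver cytochrome P450, Cel, a pancreatic lipase, Pgc, the precursor of a gastric protease, and Ins2, insulin, had the largest changes. WT libraries held 22.9 ± 8.92 CPM of Cyp1a2 and the Aire KO-labelled ones 0 reads, at least 101-fold lower, and for Cel the WT level was 22.2 ± 1.60 CPM against 0 reads, lower by at least 97.3-fold. Pgc went from 74.3 ± 19.2 to 0.158 ± 0.273 CPM and Ins2 from 31.5 ± 11.2 to 0.0788 ± 0.137 CPM. The 3 higher genes were Hdc (0.72), which makes histamine, Nfasc (0.70), a cell adhesion protein of the node of Ranvier, and Cnp (0.56), a myelin enzyme.

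In the Fezf2 KO, 6 of 60 of these genes were lower and 4 higher, with a median of -0.13, where 2.4% of all genes were lower and 2.48% higher. The largest falls were of Col17a1, a hemidesmosome collagen (-2.21, adjusted p = 0.00108), Ins2 (-1.84, adjusted p = 0.0119), Hdc (-1.11, adjusted p = 0.0233) and Agrn, agrin of the neuromuscular junction (-1.08, adjusted p = 0.0161). Slc5a5, the thyroid iodide transporter (2.44), Tgm1, epidermal transglutaminase (1.25), Dsc2, a desmocollin (1.21), and Gp2, a pancreatic granule protein (0.85), were higher. Left out in turn, each of the 3 Fezf2 KO libraries took the count of lower genes to 1, WT library A or C took it to 3, and WT library B took it to 9. Of the 8 named, Col17a1 kept its call in all 6, and the others lost it without each Fezf2 KO library. In the Chd4 cKO, 18 of 61 were lower and 13 higher, with a median of -0.10, where 14.3% of all genes were lower and 14.3% higher. Svs4, another seminal vesicle protein, fell most (-5.45, adjusted p = 0.000111), from 85 reads to 4, followed by Nlrp5, an oocyte and parathyroid protein (-1.93), Iapp, islet amyloid polypeptide (-1.87), and Gp2 (-1.70). Sox10, a glial and melanocyte factor (1.85), Dsc3, a desmocollin (1.62), Thsd7a, a podocyte protein (1.47), and Dsc1, a desmocollin (1.14), were higher. The call of Dsc1 was lost when control library A or C or cKO library B or C was left out, at an adjusted p of up to 0.119. Of the 60 tested between the WT groups, 0 passed in edgeR, 4 were lower and 13 higher at an unadjusted p under 0.05, and DESeq2 called 5.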

How the data were processed

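RNA was measured in 18 libraries of sorted mTECs, 3 in each of 6 groups, made with a low-input kit per the labels' protocols. The authors deposited raw counts of total exon reads per gene, which were used here, with genome build GRCm38 (mm10) per the submitters' processing notes. Aligner and counter: not given in the sources used here. A further 216 columns of per-library values were not used. The labels do not say whether the libraries of a group came from separate mice. Y-linked reads differed within the WT for Aire (55 to 910), the Aire KO-labelled group (2 to 903) and the Chd4 control (2 to 560), so the libraries of these groups did not all come from the same mice. In the other 3 groups the spread among libraries, which the p-values measure, may be technical.

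Each knockout was compared with its own control with edgeR 4.0.16 in R 4.3.3 (quasi-likelihood F test, TMM scaling, the filterByExpr filter on low counts). P-values were adjusted by Benjamini-Hochberg over all genes tested, and a call is an adjusted p under 0.05. Standard errors are the log2 fold change divided by the square root of F. Differences between effects were contrasts in 1 fit of 18 libraries over 21875 gene IDs found in both annotations. CPM and RPKM were computed from the TMM-scaled counts. A group at 0 was set against 3 reads over that group, and ratios with 1 to 3 reads have an exact conditional binomial 95% interval. The filtered fits were tested on simulated data in which only genes of higher counts were changed. Fits without the filter and the ratios and limits of low genes were not simulated. Alternatives were DESeq2 1.42.0, RLE scaling, no filter and each library left out. Genes outside the 32 were named as the 4 with the lowest and the 4 with the highest log2 fold change among those called in each comparison. The members and lists were chosen with earlier results of these data known, and the promoters printed were chosen after their genes' values were seen. Promoter sequences are from RefSeq and positions from GENCODE vM21.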

Additional observations from a re-analysis of the deposited data

Results flagged for a closer look

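For 17 results, the same contrast gave different effects in different knockouts by edgeR's quasi-likelihood test of the difference, adjusted over 16169 genes. Of 25 tested members, 8 differed for Fezf2 minus Aire, 4 for Chd4 minus Aire and 5 for Chd4 minus Fezf2. Over all genes, 16.9%, 16.5% and 14.9% differed. The count for Chd4 minus Aire is near the share of all genes. All differences are on the log2 scale, and no explanation was tested.

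Between the Fezf2 and the Aire effect, the difference was 7.13 for Th (SE 0.66, adjusted p = 2.96e-07), 7.22 for Tph2 (SE 1.24), 8.59 for Svs2 (SE 1.39), 3.57 for Tgm4 (SE 1.19), 3.15 for Aqp4 (SE 0.57), 1.30 for Casr (SE 0.42), 0.90 for Gad1 (SE 0.28) and -1.19 for Tph1 (SE 0.40). Tph2 and Svs2 had 0 reads in the Aire KO-labelled libraries, so these sizes depend on the prior count. Gad1, Tgm4, Tph1 and Casr each lost the call in 6 or 7 of the 12 fits with 1 library left out.

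Between the Chd4 and the Aire effect, it was 6.48 for Th (SE 0.68, adjusted p = 1.41e-06), 5.23 for Tph2 (SE 1.34), -1.98 for Tph1 (SE 0.40) and -1.82 for Atp4b (SE 0.54). Atp4b lost the call in 6 of 12 such fits.

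Between the Chd4 and the Fezf2 effect, it was -5.77 for Svs2 (SE 0.98), -2.36 for Atp4b (SE 0.53), -2.23 for Casr (SE 0.42), -2.10 for Aqp4 (SE 0.51) and -1.14 for Dsg1a (SE 0.36). Dsg1a lost the call in 6 of 12. Dsg1a and Casr had their lowest values among all WT libraries in WT for Fezf2 library B, and without it the differences were -0.82 and -1.88.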

How the results depend on the processing

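Of the 13 members' changes called in a knockout or between the WT groups, 13 kept direction and call under DESeq2, RLE scaling and no filter, and 8 kept them also with each library left out. Of 17 differences between effects, 16 and 11 did, and Tgm4, Fezf2 minus Aire, no longer passed without the filter (3.58). None of these results reversed. Without the filter on low counts, 6 members were lower and 2 higher in the Aire KO-labelled libraries (Tgm4, Svs2 and Tph2 added as lower, Tg and Tph1 as higher), 2 were higher in the Fezf2 KO (Casr added), and 1, Dsg1a, was lower between the WT groups. With DESeq2, 2 were higher in the Fezf2 KO, and 8 differed between the Chd4 and Fezf2 effects.

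With 1 library left out at a time, members lower and higher ranged from 2 to 5 and 0 to 2 in the Aire KO-labelled libraries, 0 to 0 and 0 to 4 in the Fezf2 KO, 7 to 10 and 1 to 1 in the Chd4 cKO, and 0 to 2 and 0 to 1 between the WT groups. Other targets lower ranged from 22 to 27, 1 to 9 and 13 to 16. Members whose effects differed ranged from 4 to 8, 3 to 6 and 4 to 6 for Fezf2 minus Aire, Chd4 minus Aire and Chd4 minus Fezf2. The count of 5 came without Aire KO-labelled library C and that of 4 without WT for Fezf2 library B. No paired analysis was possible because the columns carry no replicate number. At 3571570 to 17220157 exon reads, the 9 members tested with the filter in no comparison with a knockout could show large losses only.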
